A study of Drosophila melanogaster with 12 samples.

Results

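The genes described here encode the proteins of the cytoplasmic ribosome of Drosophila melanogaster, with their duplicate copies. They were chosen by symbol, as the genes of single-gene probe sets whose symbol begins with RpL or RpS and a digit, or with RpLP. This gave 47 probe sets for 41 genes, among 13647 single-gene probe sets for 11982 genes on the array. Of the 41 genes, 30 are the main copies, 8 are paralogs (RpS5b, RpS10a, RpS19b, RpS28a, RpS28-like, RpL10Aa, RpL22-like and RpL37-2), and 3 (RpL7-like, RpL24-like and RpLP0-like) are relatives whose yeast counterparts act in assembling the large subunit. The gene table holds 92 genes with such symbols, and 51 of them, RpS6 included, have no single-gene probe set in the annotation used and were not analysed here. RpS5a, RpS10b, RpS19a and RpL22 have none either. The paralogs RpS5b, RpS10a, RpS19b and RpL22-like could therefore not be set against their own main copies.

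A cytoplasmic ribosome holds 1 copy of most of its proteins, in a small subunit that reads the messenger RNA and a large subunit that joins amino acids, with a stalk of RpLP0, RpLP1 and RpLP2 that recruits translation factors. Their messenger RNAs are among the most abundant in growing cells, and ovaries make large stores of ribosomes for the egg. In flies several of these genes have a second copy, and RpS5b, RpS10a, RpS19b and RpL22-like are known for expression in the germ line. Su(Hw) is a zinc finger protein that binds DNA at insulators and is needed for oogenesis.

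Expression was measured in ovaries of 4 groups with 3 Affymetrix Drosophila Genome 2.0 arrays each. The groups were su(Hw)Pb/2 and su(Hw)2/v, which are sterile and share the allele 2, the fertile su(Hw)f/v, which shares the allele v with su(Hw)2/v, and wild type (Canton S), and they are called Pb/2, 2/v, f/v and wild type below. Each array came from RNA of about 150 ovary pairs of virgin females aged 4 to 6 h, when egg chambers reach stage 8 at most, and by the series' design egg chambers without Su(Hw) die at stage 9. Nothing in the labels says that the 3 pools of a group came from separate cultures, so p-values measure only the spread between pools, which may be technical, and the source name speaks of embryos where tissue, title and protocol speak of ovaries.

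The su(Hw) transcript itself averaged 150 ± 62.9 in Pb/2, 98.5 ± 26.4 in 2/v, 2737 ± 162 in f/v and 3808 ± 224 in wild type (normalized signal, SD, n = 3 each). All 7 germline markers on the array lay above background in wild type, where background is a signal of 62, below which 95% of the 27 bacterial control probe sets lay. Their summed deposited signal was 68787 to 70300 in Pb/2 arrays, 64232 to 66604 in 2/v, 63776 to 68722 in f/v and 55535 to 62659 in wild type. The marker lists of other cell types did not all move the same way. The 6 muscle markers summed to 11872 to 13115 in Pb/2, 10027 to 11589 in 2/v, 13384 to 14998 in f/v and 25158 to 25960 in wild type. The 5 gut markers summed to 1002 to 1214 in Pb/2, 925 to 1093 in 2/v, 790 to 950 in f/v and 10983 to 12295 in wild type. The 5 follicle cell markers summed to 5789 to 6438 in Pb/2, 4150 to 5512 in 2/v, 4723 to 6054 in f/v and 9031 to 9993 in wild type. The 3 hemocyte markers and the 2 neuron markers on the array also had their highest sums in wild type, at 1352 to 1412 and 815 to 1051, against at most 892 and 515 in any mutant array. The 3 fat body markers went the other way, with 29902 to 33275 in Pb/2, 30092 to 32418 in 2/v, 28267 to 30107 in f/v and 22652 to 25358 in wild type, although after quantile normalization 1 of them was called higher and 2 lower in each mutant genotype. On that scale the 2 neuron markers also split, with 1 called higher and 1 lower in Pb/2 and in 2/v. In f/v 0 of them were called higher and 1 lower, and only 1 lay above background in wild type. Of 5 follicle cell markers, 0 were called higher and 3 lower in Pb/2, and 1 higher and 3 lower in 2/v and f/v. The part of these differences in the results below was not tested, and in such bulk samples fewer cells of a type and less RNA per cell cannot be told apart. Of 8 testis markers, 6 (can, dj, Mst84Da, Mst87F, ProtA and ProtB) were below background in every group. The other 2 were above background in wild type. After quantile normalization 1 of the 2 tested was called higher and 0 lower in each mutant genotype against wild type. The 8 markers summed to 1458 to 1928 in Pb/2, 1000 to 1364 in 2/v, 2147 to 2652 in f/v and 1419 to 2083 in wild type.

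Of the 41 genes, 39 passed the filter on low signal, and RpL10Aa and RpS28-like, with 0 of 12 arrays above background, did not. The main copies were among the brightest features: between 93.3% and 96.7% of the 30 lay in the top percent of each array. After quantile normalization the median SD within groups was 0.039 on the log2 scale for the 30 main copies, against 0.149 for all 9109 genes tested. This scaling narrows the spread of the brightest probe sets, so the small SD does not measure how well their signals were reproduced. As deposited, the geometric mean of the main copies was 27759, 29744 and 34257 in the Pb/2 arrays, the group with the widest spread. The arrays were quantile normalized, which gives the brightest probe sets values fixed by their rank: RpL41, the smallest protein of the large subunit, ranked first on most arrays and has an SD of 0 in 2/v and in wild type. Small changes of the main copies are therefore changes of rank among the brightest features.

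After quantile normalization few ribosomal protein genes were called in any comparison, a smaller share than among all genes. Log2 fold changes and standard errors below come from a limma fit of all 12 arrays, and a gene was called at a Benjamini-Hochberg adjusted p below 0.05 over all 9109 genes. Between Pb/2 and wild type 4 of the 39 rose and 1 fell (12.8%), beside 15.9% of all genes called higher, 15.6% called lower and 31.5% in either direction. Between 2/v and wild type 4 rose and 1 fell (12.8%), beside 24.2%, 22.4% and 46.5% of all genes. Between f/v and wild type 2 rose and 2 fell (10.3%), beside 18.3%, 16.9% and 35.3% of all genes. Paralogs and relatives made up most of these calls: among the 30 main copies only RpL27 was called in Pb/2, and only RpL28 in 2/v and in f/v, each 3.33%. With any 1 array left out the calls of RpS10a in 2/v and f/v, RpS19b in Pb/2 and f/v, RpS5b in 2/v and f/v and RpL28 in f/v held. The calls of RpS5b, RpL27, RpL7-like and RpL37-2 in Pb/2 were lost without 1 or more arrays (highest adjusted p of 0.068, 0.079, 0.088 and 0.14), as were those of RpL28, RpL24-like and RpLP0-like in 2/v (0.083, 0.10 and 0.13).

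**Figure D1:**
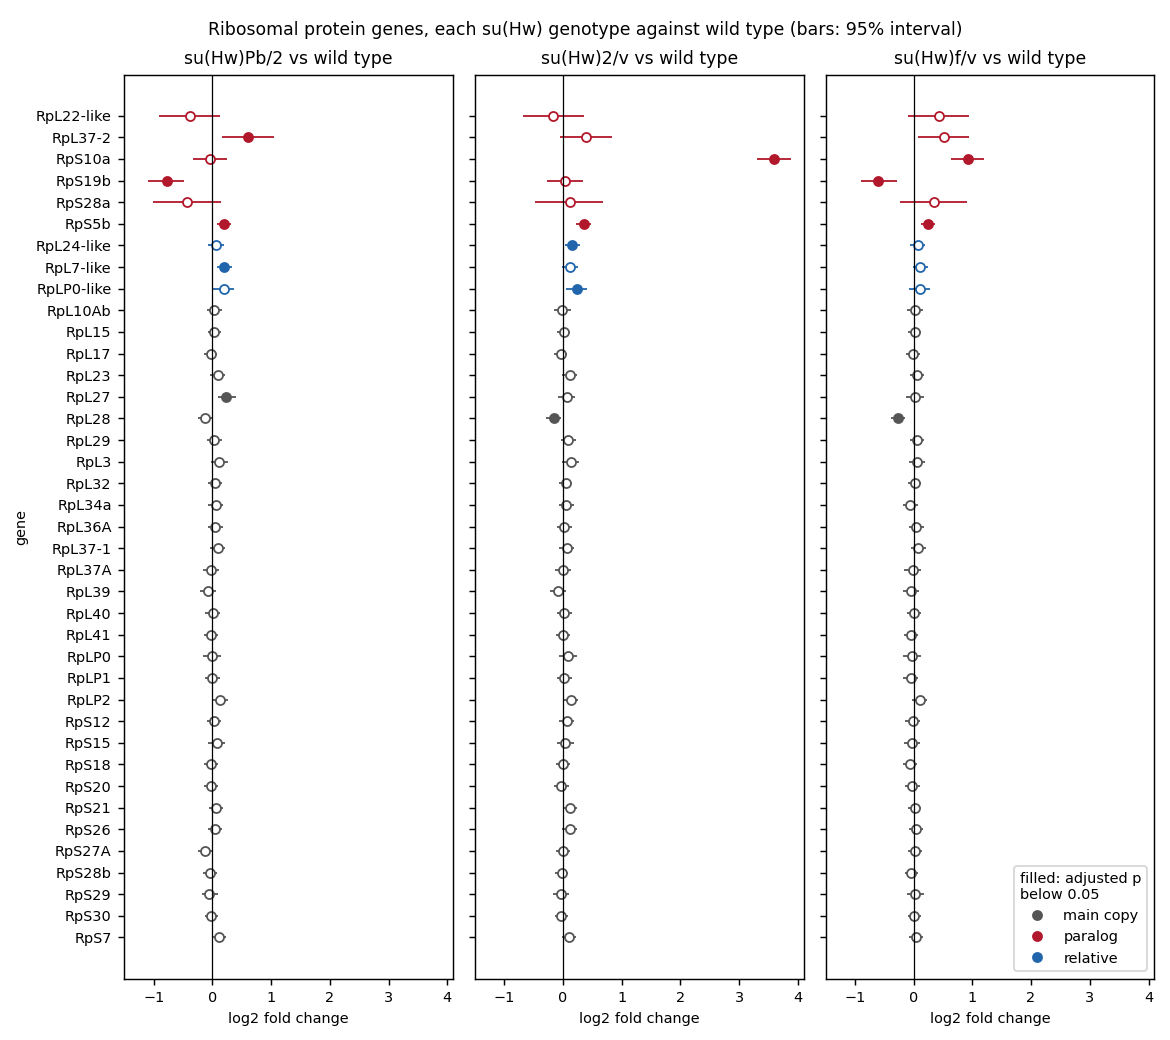
Log2 fold change (x axis) of each of the 39 genes (y axis) in Pb/2, 2/v and f/v against wild type, with 95% confidence intervals and filled points at an adjusted p below 0.05. The main copies crowd around 0, between -0.26 and 0.24, while RpS10a stands at 3.60 in 2/v.

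The direction of the main copies as a block depended on the scaling of the arrays. With quantile normalization the median of the 30 main copies was 0.02 in Pb/2, 0.02 in 2/v and 0.02 in f/v against wild type (log2), beside 0.00, 0.01 and 0.02 for all genes. In the values as deposited the medians were 0.27 in Pb/2, 0.32 in 2/v and 0.17 in f/v, and the calls among the 39 genes split into 25 higher and 2 lower, 34 higher and 0 lower, and 3 higher and 1 lower. On that scale 34.7%, 50.2% and 35.6% of all genes were called in either direction. After subtraction of the array median, which moved the median of all genes to 0.17, 0.21 and 0.16, the main copies had medians of 0.50 in Pb/2, 0.61 in 2/v and 0.37 in f/v, with 35 higher and 1 lower, 35 higher and 0 lower, and 27 higher and 1 lower. Of all genes, 39.5%, 52.1% and 38.5% were called in either direction. Scaled to the 18 hybridization controls, transcripts added in fixed amounts, all genes had medians of -0.59 in Pb/2, -0.54 in 2/v and -0.32 in f/v, and the main copies -0.26, -0.14 and -0.11. The calls then split into 0 higher and 15 lower in Pb/2, 1 higher and 4 lower in 2/v, and 0 higher and 2 lower in f/v. Among all genes 77.1%, 65% and 41.2% were called in either direction, a larger share than among the 39. Relative to the median of all genes the main copies thus lay 0 to 0.02 away under quantile normalization and higher under the 3 other scalings.

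The same shift was seen in other bright genes. The 222 non-member genes with a mean signal above 15000 had medians of 0.22 in Pb/2, 0.25 in 2/v and 0.16 in f/v in the deposited values, and under quantile normalization 10.8%, 22.1% and 14.9% of them were called. As deposited, the geometric mean of the 30 main copies was 30587 ± 3330 in Pb/2, 31728 ± 1038 in 2/v, 28163 ± 763 in f/v and 25151 ± 516 in wild type (SD, n = 3 each). The hybridization controls moved the same way, at 16761 ± 1228 in Pb/2, 16088 ± 1755 in 2/v, 14120 ± 569 in f/v and 11585 ± 585 in wild type. The part of labelling or scanner brightness in the shift of the block was not tested.

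**Figure D2:**
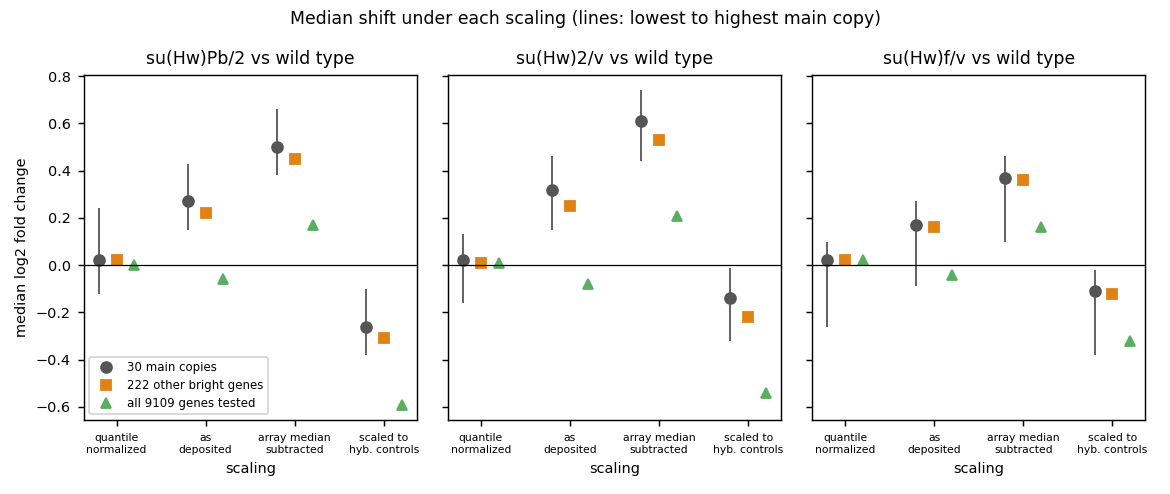
Median log2 fold change against wild type (y axis) under each scaling (x axis; hyb. stands for hybridization) for the 30 main copies, the 222 other bright genes and all 9109 genes tested, with lines from the lowest to the highest main copy. The main copies follow the other bright genes, and their median is positive in the deposited values and negative when scaled to the hybridization controls.

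RpS10a, a paralog of the small-subunit protein gene RpS10b, changed most. Its signal was 216, 265 and 247 in Pb/2 arrays, 3261, 3182 and 3187 in 2/v arrays, 419, 550 and 494 in f/v arrays, and 297, 211 and 247 in wild-type arrays. The 2/v arrays stood far above the other 9, the f/v arrays lay above those of Pb/2 and wild type, and the Pb/2 arrays overlapped wild type. RpS10a was thus 12.2-fold higher in 2/v than in wild type (log2 3.60 ± 0.13, adjusted p = 1.5e-08) and 1.89-fold higher in f/v than in wild type (0.92 ± 0.13, adjusted p = 3.7e-04). In Pb/2 it read -0.04 ± 0.13 against wild type (adjusted p = 0.84), with -0.33 ± 0.11 in the deposited values (adjusted p = 0.049) and -0.86 ± 0.15 when scaled to the hybridization controls (adjusted p = 4.8e-04).

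The sterile genotypes differed from each other in RpS10a more than either differed from wild type in any other member. RpS10a was lower in Pb/2 than in 2/v (-3.64 ± 0.13, adjusted p = 3.5e-07) and lower in Pb/2 than in f/v (-0.96 ± 0.13, adjusted p = 5.3e-04). It was higher in 2/v than in f/v (2.69 ± 0.13, adjusted p = 3.1e-07). Over 26 alternative settings the change in 2/v against wild type ranged from 2.86 to 3.72, with a highest adjusted p of 1.3e-05. The rise in f/v ranged from 0.32 to 1.03 and was not called when the arrays were scaled to the hybridization controls (0.32 ± 0.15, adjusted p = 0.10).

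RpS10a lies within the span of tau, which encodes a microtubule-binding protein, on chromosome arm 3R. Transcripts of tau averaged 116 ± 32.5 in 2/v and 189 ± 7.58 in wild type (SD, n = 3 each), a log2 fold change of -0.66 ± 0.16 (adjusted p = 0.0073). Among the 8 genes tested within 5 places of RpS10a in gene order, changes in 2/v against wild type ran from -0.69 ± 0.06 for Mlc1, a myosin light chain gene, to 0.71 ± 0.07 for Hsdl2. None of these neighbours came near the size of the RpS10a change.

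RpS19b, a paralog of the small-subunit protein gene RpS19a, grouped the genotypes differently. It read 557, 430 and 493 in Pb/2, 956, 847 and 827 in 2/v, 661, 552 and 479 in f/v, and 966, 763 and 850 in wild type. All Pb/2 and f/v arrays lay below all 2/v and wild-type arrays. It fell by 0.78 ± 0.14 in Pb/2 (adjusted p = 0.0013) and by 0.60 ± 0.14 in f/v (adjusted p = 0.0066) against wild type, and read 0.03 ± 0.14 in 2/v (adjusted p = 0.88). The value in Pb/2 was also below that in 2/v (-0.81 ± 0.14, adjusted p = 0.0036), and 2/v was above f/v (0.63 ± 0.14, adjusted p = 0.0069). The falls in Pb/2 and f/v were called under all 26 alternatives (-1.49 to -0.69 and -1.10 to -0.49), while 2/v against wild type was -0.67 ± 0.19 (adjusted p = 0.0088) when scaled to the hybridization controls.

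RpS5b, a paralog of the small-subunit protein gene RpS5a that is needed for oogenesis in flies, differed from wild type in all 3 mutant genotypes. Its signal was 21546, 22333 and 22374 in Pb/2, 24304, 24304 and 24743 in 2/v, 22803, 22040 and 23668 in f/v, and 19885, 18800 and 19005 in wild type. Every array of the 3 mutant genotypes lay above every wild-type array. The rises were 0.20 ± 0.06 in Pb/2 (adjusted p = 0.020), 0.35 ± 0.06 in 2/v (adjusted p = 6.4e-04) and 0.25 ± 0.06 in f/v (adjusted p = 0.0062). Scaled to the hybridization controls RpS5b read -0.13 ± 0.12 in Pb/2 (adjusted p = 0.33), 0.12 ± 0.12 in 2/v (adjusted p = 0.36) and 0.07 in f/v, with no call. The summed germline markers given above, in deposited signal, were also higher in every mutant array than in every wild-type array. On the quantile normalized scale of the RpS5b values, 1 of the 7 germline markers was called higher and 1 lower in Pb/2 (median log2 fold change 0.01), 1 higher and 3 lower in 2/v (-0.13), and 0 higher and 0 lower in f/v (0.04). Their part in the RpS5b rise was not tested.

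The remaining paralogs had signals nearer to background. RpL37-2, a copy of the large-subunit gene RpL37-1, read 297, 209 and 186 in Pb/2, 207, 215 and 159 in 2/v, 259, 209 and 170 in f/v, and 155, 118 and 159 in wild type. It rose in Pb/2 against wild type (0.61 ± 0.20, adjusted p = 0.039), with 0.39 ± 0.20 in 2/v (adjusted p = 0.13) and 0.51 ± 0.20 in f/v (adjusted p = 0.072). In the deposited values the change in Pb/2 was 0.35 ± 0.22 (adjusted p = 0.23). Its main copy RpL37-1 read 0.09 ± 0.06 in Pb/2, 0.06 ± 0.06 in 2/v and 0.08 ± 0.06 in f/v, with adjusted p of 0.30, 0.44 and 0.30.

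RpL22-like, a paralog of the large-subunit gene RpL22, read 82.9, 65.0 and 63.9 in Pb/2, 136, 71.7 and 60.5 in 2/v, 115, 143 and 153 in f/v, and 81.6, 93.1 and 119 in wild type. It was above background on 10 of 12 arrays in the values as deposited. It was lower in Pb/2 than in f/v (-0.82 ± 0.23, adjusted p = 0.033), with no overlap of the arrays, and this call was lost without some arrays of Pb/2 or f/v (highest adjusted p = 0.10). Against wild type it read -0.39 in Pb/2 (adjusted p = 0.24), -0.17 in 2/v (adjusted p = 0.59) and 0.43 in f/v (adjusted p = 0.19).

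RpS28a, a copy of the small-subunit gene RpS28b, read 47.5, 93.3 and 138 in Pb/2, 127, 118 and 157 in 2/v, 159, 155 and 163 in f/v, and 104, 129 and 137 in wild type. The Pb/2 arrays spread widely and overlapped those of 2/v and wild type, but all lay below the f/v arrays (-0.77 ± 0.26, adjusted p = 0.059). No comparison was called for RpS28a with all arrays. With the third Pb/2 array left out, Pb/2 was called lower than f/v, 2/v and wild type. Its main copy RpS28b read -0.04 ± 0.05 in Pb/2, -0.02 ± 0.05 in 2/v and -0.04 ± 0.05 in f/v against wild type (adjusted p of 0.57, 0.75 and 0.64).

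**Figure D3:**
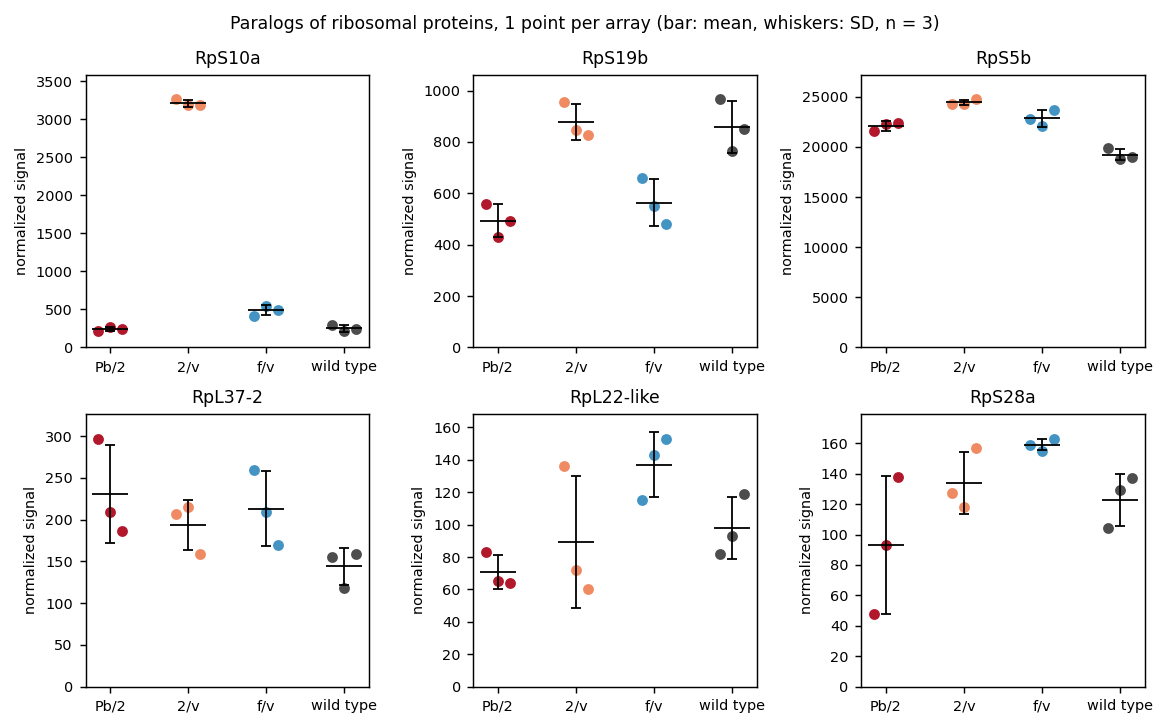
Normalized signal (y axis) of the 6 tested paralogs on each array, by genotype (x axis), with the mean and SD of 3 arrays. RpS10a reads 3182 to 3261 in 2/v and at most 550 elsewhere, RpS19b is low in Pb/2 and f/v, and RpS5b is lowest in wild type.

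The 3 relatives, whose yeast counterparts are assembly factors and not part of the finished ribosome, had small positive differences from wild type after quantile normalization. RpLP0-like averaged 17013 ± 1144 in Pb/2, 17508 ± 1356 in 2/v, 15936 ± 868 in f/v and 14882 ± 681 in wild type (SD, n = 3 each), and rose in 2/v (0.23 ± 0.08, adjusted p = 0.038). RpL24-like averaged 25855 ± 569 in 2/v and 23072 ± 762 in wild type, and rose in 2/v (0.16 ± 0.06, adjusted p = 0.038). RpL7-like averaged 18137 ± 939 in Pb/2 and 15789 ± 522 in wild type, and rose in Pb/2 (0.20 ± 0.06, adjusted p = 0.028). Scaled to the hybridization controls these differences read -0.04, -0.02 and -0.14.

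Among the main copies RpL28, a large-subunit protein gene, read 28807, 27122 and 27122 in Pb/2, 27122, 26514 and 27021 in 2/v, 25806, 24591 and 25215 in f/v, and 30478, 30378 and 29531 in wild type. All 9 mutant arrays lay below all wild-type arrays, and the f/v arrays were lowest. It fell by 0.26 ± 0.05 in f/v (adjusted p = 0.0044) and by 0.16 ± 0.05 in 2/v (adjusted p = 0.031), and read -0.12 ± 0.05 in Pb/2 (adjusted p = 0.12). With the array median subtracted, which raised all main copies, RpL28 was 0.38 ± 0.11 in Pb/2 (adjusted p = 0.018), 0.44 ± 0.11 in 2/v (adjusted p = 0.0064) and 0.10 ± 0.11 in f/v (adjusted p = 0.50).

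A second probe set, which the annotation assigns jointly to RpL28 and snoRNA:Or-CD12, ordered the genotypes in the same way with wider gaps. It averaged 3809 ± 564 in Pb/2, 2808 ± 53.5 in 2/v, 1645 ± 277 in f/v and 5598 ± 576 in wild type (SD, n = 3 each). In a fit of all 12618 probe sets it was lower than wild type by -0.56 ± 0.14 in Pb/2 (adjusted p = 0.014), -0.99 ± 0.14 in 2/v (adjusted p = 3.8e-04) and -1.77 ± 0.14 in f/v (adjusted p = 9e-06). Because the probe set names both genes, its signal was not assigned to either. Called probe sets made up 26.8% in Pb/2, 40.1% in 2/v and 29.7% in f/v in this fit.

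RpL27, another large-subunit gene, averaged 19929 ± 345 in Pb/2, 17553 ± 140 in 2/v, 17093 ± 1289 in f/v and 16860 ± 818 in wild type (SD, n = 3 each). All Pb/2 arrays exceeded all others, and RpL27 was higher in Pb/2 than in wild type (0.24 ± 0.07, adjusted p = 0.022) and than in f/v (0.22 ± 0.07, adjusted p = 0.044, and 0.14 at most with an array left out). Scaled to the hybridization controls it read -0.10 ± 0.13 against wild type (adjusted p = 0.48).

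The stalk genes and RpL3, the core protein of the large subunit beside its catalytic centre, gave no call at their brightest probe sets. RpLP0 read -0.01 ± 0.07 in Pb/2, 0.08 ± 0.07 in 2/v and -0.03 ± 0.07 in f/v against wild type (adjusted p of 0.94, 0.35 and 0.79). RpLP1 read 0.00, 0.02 and -0.05 (each ± 0.06), and RpLP2 0.13, 0.13 and 0.10 (each ± 0.06), with adjusted p from 0.10 to 0.98. RpL10Ab, the main copy whose paralog RpL10Aa was not detectable, read 0.03 in Pb/2, -0.01 in 2/v and 0.03 in f/v. For all 30 main copies the 95% confidence intervals against wild type lay between -0.38 and 0.40 after quantile normalization.

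Of the 4 members with several probe sets, RpL3, RpS29 and RpS7 had probe sets that differed in their calls against wild type, and RpS30 had none called against wild type. RpL3 has 3 probe sets, and the brightest averaged 28509 ± 1220 in Pb/2, 28582 ± 498 in 2/v, 27273 ± 876 in f/v and 26172 ± 1494 in wild type (SD, n = 3 each). Its dimmest probe set read 517, 650 and 528 in Pb/2, 582, 540 and 572 in 2/v, 1010, 1044 and 1015 in f/v, and 733, 959 and 835 in wild type, so that the 6 sterile arrays lay below the 6 fertile ones. In the fit of all probe sets this was -0.56 ± 0.11 in Pb/2 (adjusted p = 0.0035) and -0.56 ± 0.11 in 2/v (adjusted p = 0.0028) against wild type, and 0.28 ± 0.11 in f/v (adjusted p = 0.081). The third RpL3 probe set averaged 6462 ± 201 in Pb/2, 5574 ± 367 in 2/v, 7628 ± 445 in f/v and 7234 ± 241 in wild type. Averaged over the sterile against the fertile groups, the RpL3 probe sets gave -0.70 ± 0.08 (adjusted p = 8.9e-05) for the dimmest, -0.31 ± 0.05 (adjusted p = 0.0014) for the third and 0.10 ± 0.05 (adjusted p = 0.15) for the brightest, with 31.0% of all probe sets called.

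RpS29, a small-subunit gene, showed a disagreement of the opposite sign. Its dimmest probe set read 684, 828 and 718 in Pb/2, 816, 716 and 774 in 2/v, 715, 683 and 784 in f/v, and 594, 482 and 554 in wild type, with every mutant array above wild type. The rises were 0.44 ± 0.10 in Pb/2 (adjusted p = 0.0097), 0.49 ± 0.10 in 2/v (adjusted p = 0.0039) and 0.41 ± 0.10 in f/v (adjusted p = 0.013). The brightest RpS29 probe set read -0.05 in Pb/2, -0.03 in 2/v and 0.03 in f/v (each ± 0.06, with no call). A further bright RpS29 probe set averaged 31217 ± 1011 in Pb/2, 29056 ± 2147 in 2/v, 31522 ± 423 in f/v and 29052 ± 2790 in wild type. It was thus level between 2/v and wild type.

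RpS7, another small-subunit gene, had a dim second probe set at 112, 107 and 157 in Pb/2, 164, 158 and 195 in 2/v, 179, 219 and 180 in f/v, and 201, 204 and 194 in wild type. It fell by 0.63 ± 0.14 in Pb/2 (adjusted p = 0.0064), while its brightest probe set read 0.11 ± 0.06 (adjusted p = 0.16).

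RpS30, the fourth such gene, encodes a small-subunit protein made as a fusion with a ubiquitin-like protein. Its second probe set read 5433, 5614 and 5403 in Pb/2, 4781, 4754 and 4841 in 2/v, 5379, 5234 and 5497 in f/v, and 5012, 4980 and 5375 in wild type, with the 2/v arrays below all others. Against wild type it read 0.10 ± 0.06 in Pb/2 (adjusted p = 0.26), -0.10 ± 0.06 in 2/v (adjusted p = 0.23) and 0.07 ± 0.06 in f/v (adjusted p = 0.43). It was higher in Pb/2 than in 2/v (0.19 ± 0.06, adjusted p of 0.05 after rounding and just under the threshold), where 15.6% of all probe sets were called, while its brightest probe set read 0.01 ± 0.05 (adjusted p = 0.92).

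In deposited signal, the probe for the 5′ part of 18S ribosomal RNA, a control on the array, averaged 6592 ± 1538 in Pb/2, 8058 ± 1390 in 2/v, 9152 ± 549 in f/v and 10328 ± 1245 in wild type, against 16372 ± 2970, 18565 ± 1176, 18417 ± 209 and 18411 ± 1619 for the 3′ part. The middle part averaged 9393 ± 2129, 12184 ± 1041, 13402 ± 1032 and 13842 ± 1115. On this scale the hybridization controls also differed between the groups, as given above. The part of RNA quality in the probe set differences was not tested.

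**Figure D4:**
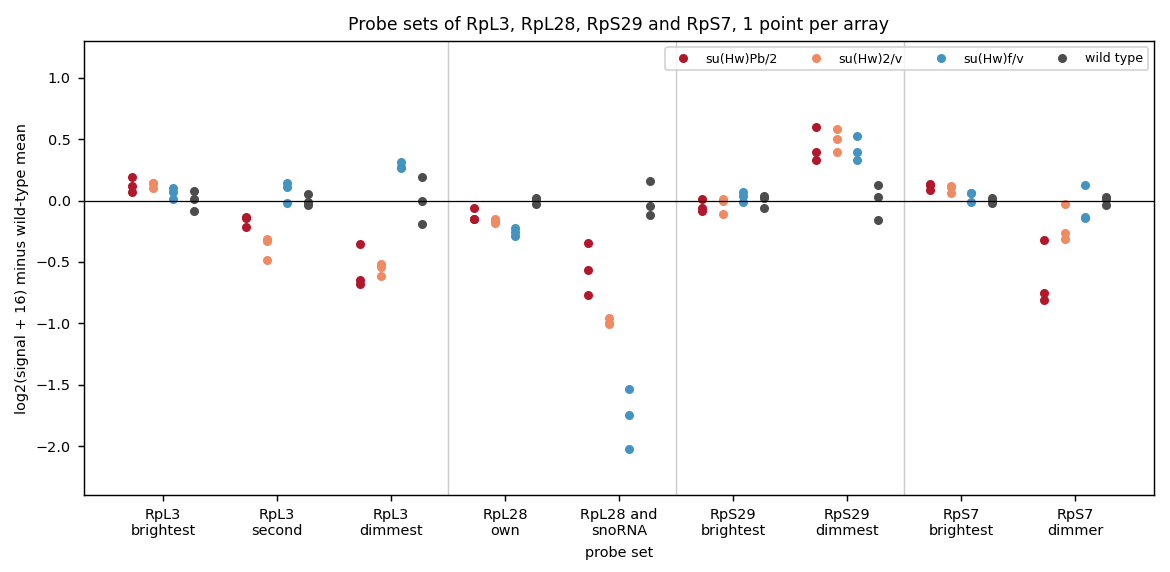
Difference of log2(signal + 16) from the wild-type mean (y axis) for probe sets of RpL3, RpL28, RpS29 and RpS7 (x axis), with 1 point per array coloured by genotype. The brightest probe sets stay near 0, while the dimmest RpL3 probe set is low in all 6 sterile arrays and the joint RpL28 probe set is lowest in f/v.

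Comparison of the mutant genotypes with each other gave fewer calls. Between Pb/2 and 2/v 0 members were higher and 2 lower (RpS10a and RpS19b), beside 9.28% of all genes called higher, 11.1% called lower and 20.4% in either direction. Between Pb/2 and f/v 1 was higher (RpL27) and 2 lower (RpS10a and RpL22-like), beside 10.0%, 10.5% and 20.5% of all genes. Between 2/v and f/v 2 were higher (RpS10a and RpS19b) and 0 lower, beside 13.8%, 13.6% and 27.4% of all genes. The average of the sterile groups against that of the fertile groups gave 4 higher and 1 lower, beside 18.5%, 18.1% and 36.6% of all genes.

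At the brightest probe set of each gene, no member called in the sterile against fertile average separated the 6 sterile arrays from the 6 fertile ones. The dimmest and the third RpL3 probe set, called in the fit of all probe sets, did separate them. RpS10a (1.32 ± 0.09, adjusted p = 2.1e-06) was highest in 2/v, was also higher in f/v than in wild type, and overlapped wild type in Pb/2. In RpS5b (0.15, adjusted p = 0.013), RpLP0-like (0.16, adjusted p = 0.048), RpL27 (0.14, adjusted p = 0.044) and RpL22-like (-0.49, adjusted p = 0.040) the sterile and fertile arrays overlapped. With 1 array left out the calls of RpS10a and RpS5b held, and those of RpL27, RpLP0-like and RpL22-like were each lost without most of the arrays in turn (highest adjusted p of 0.096, 0.11 and 0.089). At the brightest probe sets the arrays did not overlap for 2 of the 39 members, beside 9.12% of all genes. These were RpL34a (0.08 ± 0.04, adjusted p = 0.13) and RpS21 (0.08 ± 0.04, adjusted p = 0.11), neither of them called.

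For copies whose main copy is on the array, the difference between the copy and its main copy was compared between 6 sterile and 6 fertile arrays in an exact two-sided permutation test over all 924 regroupings, which can give no p below 0.0022. Each side holds 2 genotypes, and the regroupings treat their pools as interchangeable, so the p-values do not measure sterility apart from genotype. After quantile normalization RpS28a minus RpS28b lay -0.39 from wild type in Pb/2, 0.13 in 2/v and 0.37 in f/v. The exact permutation test gave -0.32 for RpS28a against RpS28b (p = 0.19), 0.21 for RpL37-2 against RpL37-1 (p = 0.25) and 0.11 for RpLP0-like against RpLP0 (p = 0.14), and all 3 had an adjusted p of 0.25. In the values as deposited the difference for RpS28a was -0.69 (exact permutation p = 0.0043, not adjusted). Subtracting the array median or scaling to the hybridization controls shifts both genes of an array alike, so these scalings must return the same value. As deposited, the main copies had a median of 0.22 in sterile against fertile, beside -0.05 for all genes. RpS28a is dim and RpS28b bright, and the part of this shift in their difference was not tested.

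Other genes of ribosome production and translation were counted over whole lists, to be read beside the shares of all genes given above. Of 21 ribosome biogenesis genes, 1 rose and 1 fell in Pb/2, 3 rose and 6 fell in 2/v, and 1 rose and 4 fell in f/v against wild type. The largest change was in Non1, a GTPase of large-subunit assembly, which averaged 9983 in Pb/2, 10581 in 2/v, 11669 in f/v and 6199 in wild type, with rises of 0.69 ± 0.07, 0.77 ± 0.07 and 0.91 ± 0.07 (adjusted p of 2.3e-05, 9e-06 and 3e-06). Mat89Ba, a nucleolar protein gene, fell by 0.82 ± 0.16 in 2/v (adjusted p = 0.0020). Of 8 genes of RNA polymerase I, which transcribes ribosomal RNA, 0 rose and 1 fell in Pb/2, 0 rose and 1 fell in 2/v, and 1 rose and 1 fell in f/v. The largest changes were in f/v, where Polr1H, a small subunit of the enzyme, rose by 0.58 ± 0.16 (adjusted p = 0.016) and udd, needed for its activity in the germ line, fell by 0.57 ± 0.12 (adjusted p = 0.0035).

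Of 22 translation initiation genes, 3 rose and 0 fell in Pb/2, 1 rose and 6 fell in 2/v, and 1 rose and 3 fell in f/v. eIF4G2, an initiation scaffold known for its role in spermatogenesis, averaged 2462 in Pb/2, 1464 in 2/v, 2190 in f/v and 3101 in wild type, and fell by 1.09 ± 0.16 in 2/v (adjusted p = 3.9e-04). Its relative eIF4G1 fell by 0.49 ± 0.11 in 2/v (adjusted p = 0.0044). Of 4 elongation genes, 2 rose in Pb/2, 2 in 2/v and 1 in f/v. These were eEF1alpha2, a factor that brings transfer RNA to the ribosome (1.22 ± 0.18, 0.68 ± 0.18 and 1.08 ± 0.18, adjusted p of 4.8e-04, 0.012 and 0.0011), and in Pb/2 and 2/v eEF1gamma (0.24 ± 0.06 and 0.30 ± 0.06, adjusted p of 0.011 and 0.0024). Of 2 tested genes of the response to ribosomal protein loss, 0 were called in Pb/2, 1 in 2/v and 0 in f/v. The called gene, Irbp18, rose by 0.53 ± 0.11 in 2/v (adjusted p = 0.0035), where 46.5% of all genes were called.

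Mitochondrial ribosomal proteins, which are encoded in the nucleus for a separate ribosome, were described in the same way. Of 69 genes, 11 rose and 2 fell in Pb/2, 30 rose and 2 fell in 2/v, and 17 rose and 1 fell in f/v against wild type. Their median log2 fold changes were 0.09, 0.18 and 0.13, beside 0.00, 0.01 and 0.02 for all genes. mRpL27 averaged 8355 in Pb/2, 9479 in 2/v, 7179 in f/v and 5657 in wild type, and rose by 0.74 ± 0.10 in 2/v (adjusted p = 2.8e-04). mRpS35 averaged 4892 in Pb/2, 7832 in 2/v, 5327 in f/v and 4918 in wild type, and rose by 0.67 ± 0.10 in 2/v (adjusted p = 4.4e-04).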

How the data were processed

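Ovary RNA on 12 arrays was analysed. Per the labels' protocols, ovarian RNA went through SPIA cDNA amplification before labelling with biotin, and the authors deposited linear intensity values, credited to GCOS by the submitters' processing notes (its version is not given in the sources used here). Of 18952 probe sets, 183 controls were removed. Intensity was transformed as log2(signal + 16), and because array medians differed by up to 0.393 (limit 0.1) the arrays were quantile normalized. Folds on this scale understate changes of dim genes. Probe sets above the 40th percentile in at least 3 of 12 arrays were kept (12618), and the brightest single-gene probe set stood for each gene (9109 genes). The fit of 1 mean per group used lmFit and eBayes of limma 3.58.1 in R 4.3.3, with 8 residual degrees of freedom, and was tested on simulated data. Calls needed a Benjamini-Hochberg adjusted p under 0.05. Standard errors come from this fit, and mean levels are given with SDs of 3 arrays. Brightness served only to choose, rank and describe probe sets, and gives no relative abundance of genes, and the number of arrays limits the precision.

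Symbols come from the platform annotation, with 13544 probe sets matched by gene number. The 402 probe sets of several genes and the 4720 without a symbol entered only the fit of all probe sets. Gene order follows the RefSeq table (assembly Release 6 plus ISO1 MT). Plots were made in Python 3.11.15 and matplotlib 3.10.9. The 18 pairs of arrays with the same replicate number correlated at -0.153 to 0.0987 after removal of group means, so arrays were not treated as paired. The members and lists were chosen with earlier results of these data known. Named were every copy and its main copy, up to 6 called rises and falls per comparison, RpLP0, RpLP1, RpLP2, RpS6 and RpL3 as examples, and of each other list up to 2 called genes with the largest change against wild type. The second probe sets of a gene and the neighbours of RpS10a were chosen after their values were seen. Alternatives were other scalings (as deposited, array median, hybridization controls), pseudocounts, filters, probe set rules, fits of only the compared arrays, trend and robust eBayes, a replicate block, an adjusted p below 0.01 and omission of each array, and, added after seeing the data, control probe sets kept in the scaling and copies set against the mean of all main copies.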

Additional observations from a re-analysis of the deposited data

Results flagged for a closer look

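Effects of the mutant genotypes against wild type that differed between genotypes, by the limma contrast between them, were found for 4 genes. For RpS10a the change in 2/v exceeded that in f/v by 2.69, the change in Pb/2 was below that in f/v (-0.96), and the change in Pb/2 was below that in 2/v (-3.64). For RpS19b the change in 2/v exceeded that in f/v by 0.63, and the change in Pb/2 was below that in 2/v (-0.81). For RpL22-like the change in Pb/2 was below that in f/v (-0.82). For RpL27 the change in Pb/2 exceeded that in f/v by 0.22. Adjusted p-values stand in the report, and no explanation was tested.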

How the results depend on the processing

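Counts of called ribosomal protein genes moved by over 1.5 times under several settings, and the cause was not tested unless stated. The counts in the report are 5 (Pb/2), 5 (2/v) and 4 (f/v) against wild type, 2 (Pb/2 against 2/v), 3 (Pb/2 against f/v), 2 (2/v against f/v) and 5 (sterile against fertile). In the values as deposited they were 27 (Pb/2 against wild type), 34 (2/v against wild type), 7 (2/v against f/v) and 33 (sterile against fertile). The shares of all genes called were 34.7%, 50.2%, 27.6% and 40% in that order. With the array median subtracted the counts were 36 (Pb/2), 35 (2/v) and 28 (f/v) beside wild type and 36 (sterile against fertile). There 39.5%, 52.1%, 38.5% and 41.7% of all genes were called. Scaled to hybridization controls the counts were 15 (Pb/2) and 2 (f/v), beside 77.1% and 41.2% of all genes. Shares of all genes are not given for most of the settings that follow. With no filter, which tests more genes, the counts were 3 (Pb/2) and 2 (2/v) against wild type, 1 (Pb/2 against f/v) and 2 (sterile against fertile). The mean of all probe sets gave 5 (Pb/2 against f/v), and every probe set separately 8 (Pb/2 against wild type). Only the groups compared, which leaves fewer arrays, gave 1 (Pb/2) and 2 (2/v) against wild type. eBayes with trend and robust settings gave 11 (Pb/2) and 12 (2/v) against wild type, 5 (Pb/2 against 2/v), 6 (Pb/2 against f/v) and 14 (sterile against fertile). An adjusted p below 0.01 gave 1 (Pb/2) and 2 (2/v) against wild type, 1 (Pb/2 against f/v) and 1 (sterile against fertile). The replicate block gave 3 (Pb/2) and 2 (2/v) against wild type and 2 (sterile against fertile), where only 3 of 12 arrays correlated best with their own number. Leaving out each array gave 2 to 5 (Pb/2), 2 to 5 (2/v) and 4 to 5 (f/v) against wild type, 2 to 3 (2/v against f/v), 1 to 3 (Pb/2 against f/v), 2 to 3 (Pb/2 against 2/v) and 2 to 4 (sterile against fertile). In 2/v and Pb/2 against wild type the omission of any array of the compared groups moved the count by over 1.5 times, in sterile against fertile that of any array but the first of f/v and of wild type, and in Pb/2 against f/v that of f/v arrays 2 and 3 and Pb/2 array 2. The difference of RpS28a and RpS28b was -0.69 in the values as deposited, which the array median and hybridization scalings cannot change. With an array left out it was -0.42 to -0.12. That of RpLP0-like and RpLP0 ranged from 0.07 to 0.16, with p past the threshold without the third 2/v array. Set against the mean of all main copies, RpL22-like (-0.52, exact permutation p = 0.030) and RpLP0-like (0.14, exact permutation p = 0.028) had an adjusted p of 0.14 over 9 such tests. Here too the arrays were regrouped across genotypes.

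Signs turned in these cases. As deposited, RpL10Ab, RpL28 and RpS28b were 0.31, 0.15 and 0.29 in 2/v and 0.21, 0.20 and 0.19 in sterile against fertile, and RpS28b was 0.24 in Pb/2. With the array median subtracted, RpL28 was 0.38 in Pb/2, 0.44 in 2/v, 0.10 in f/v and 0.36 in sterile against fertile, RpS28b was 0.47, 0.57, 0.33 and 0.35, RpL10Ab was 0.60 in 2/v and 0.37 in sterile against fertile, and RpLP0 and RpLP1 were 0.48 and 0.50 in Pb/2. Scaled to hybridization controls, RpL24-like (-0.02), RpLP0-like (-0.04), RpS19b (-0.67) and RpS28a (-0.66) turned in 2/v against wild type, RpL27 (-0.10), RpL37-2 (-0.18), RpL7-like (-0.14) and RpS5b (-0.13) in Pb/2 against wild type, and RpL27 (-0.08), RpLP0-like (-0.06) and RpS5b (-0.04) in sterile against fertile. The mean of all probe sets, which takes in the dimmer RpL3 probe sets, gave RpL3 -0.27 in 2/v and -0.20 in Pb/2 against wild type, -0.41 in 2/v and -0.34 in Pb/2 against f/v, and -0.30 in sterile against fertile. Pseudocounts of 1 and 64, the filter at the 60th percentile and control probe sets kept in the scaling moved no count by over 1.5 times.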
